A study of Mus musculus with 3 samples.

Results

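The CD2 and SLAM family genes examined here are 8 receptors, Cd2, Cd48, Slamf1, Slamf6, Slamf7, Ly9, Cd84 and Cd244, and 2 adaptors, Sh2d1a and Sh2d2a. They were taken by name from the gene table, where they make up 10 of 50600 genes, and all 10 were found. Cd244 carries the symbol Cd244a in the annotation and is called so from here on. RNA was measured in mouse T-helper 1 (Th1) cells, the CD4 helper T cells known for making interferon-gamma, and the labels describe primary cells of strain C57BL/6NJ. The series holds 1 group of 3 libraries, biological replicates 1, 2 and 3, with no treatment in the labels and a time point of 2 hours in the file headers only. The labels give a separate biosample for each library and the same donor entry for all, and do not say whether the cultures came from separate animals. Tests between replicates therefore measure only the spread between these samples, which may be technical.

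CD2 and the SLAM receptors are related immunoglobulin-type proteins of the leukocyte surface that bind partners on a neighbouring cell. Most SLAM receptors bind a copy of themselves on the other cell, whereas CD48 is the ligand of CD2 in the mouse and of CD244. Several SLAM receptors carry tyrosine motifs in their tails that recruit SAP, the small adaptor encoded by Sh2d1a, and SAP brings in the kinase Fyn. In T cells this pathway supports help to B cells and natural killer T cell development, and CD2 supports adhesion and receptor signalling at the immune synapse. Sh2d2a encodes TSAd, an adaptor that binds the kinase Lck and is known to be induced in activated T cells.

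Of the members, 7 form the SLAM gene cluster on chromosome 1, which spans 394 kb of mm10 (171559193 to 171953170). Promoter sequences from this cluster are shown because they belong to its member with the highest level, to the CD2 ligand Cd48, and to its member with no count. Each runs from 250 bases before to 50 bases after the RefSeq gene start on GRCm38.p6, plus strand, at chr1:171766882-171767181 for Slamf1, chr1:171681742-171682041 for Cd48 and chr1:171558943-171559242 for Cd244a. Capitals mark the letters TGTGGT (bound by RUNX factors), CCGGAA (bound by ETS factors) and GGAAA (bound by NFAT factors), searched on both strands, so that a match on the minus strand appears as its reverse complement.
Slamf1: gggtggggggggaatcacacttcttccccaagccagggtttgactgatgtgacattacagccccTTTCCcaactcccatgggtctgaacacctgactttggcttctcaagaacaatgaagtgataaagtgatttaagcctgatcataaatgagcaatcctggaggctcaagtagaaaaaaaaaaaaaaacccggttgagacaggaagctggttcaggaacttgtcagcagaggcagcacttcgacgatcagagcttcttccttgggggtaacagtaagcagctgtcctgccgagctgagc
Cd48: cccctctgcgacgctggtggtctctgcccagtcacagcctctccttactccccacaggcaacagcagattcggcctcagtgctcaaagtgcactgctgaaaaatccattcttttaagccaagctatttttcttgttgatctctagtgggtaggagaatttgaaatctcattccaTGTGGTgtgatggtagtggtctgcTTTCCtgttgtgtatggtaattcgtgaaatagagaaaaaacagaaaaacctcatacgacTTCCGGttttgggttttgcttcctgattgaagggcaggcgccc
Cd244a: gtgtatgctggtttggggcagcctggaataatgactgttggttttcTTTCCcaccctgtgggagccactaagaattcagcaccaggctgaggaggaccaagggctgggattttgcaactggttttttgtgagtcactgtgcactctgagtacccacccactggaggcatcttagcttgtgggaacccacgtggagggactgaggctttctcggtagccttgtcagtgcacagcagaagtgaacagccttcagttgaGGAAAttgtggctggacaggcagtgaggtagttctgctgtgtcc
The Slamf1 window held 1 match to GGAAA and none to the other motifs. The Cd48 window held 1 match to each motif, with TGTGGT and GGAAA before the gene start and CCGGAA after it. The Cd244a window held 2 matches to GGAAA, 1 on each side of the start. Of the windows not printed, that of Slamf7 held 3 matches to GGAAA, that of Cd84 1 to TGTGGT and 1 to GGAAA, and that of Slamf6 none. CCGGAA and GGAAA can share bases, and no matches overlapped in the members' windows. Among 32851 windows of the same length in the table, 16.8% held TGTGGT, 14.9% CCGGAA and 61.3% GGAAA. Windows were listed for 6 of the 10 members.

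The libraries carried 4442901, 3123869 and 2950658 counts in replicates 1, 2 and 3. The T cell markers were present, with all 11 at 1 TPM or more in every library and a summed level of 4168, 1821 and 2311 TPM in replicates 1, 2 and 3. Of protein-coding genes 38.7% reached 1 TPM in every library. TPM, the transcript share of a gene scaled to a fixed library total, was computed from counts and exon lengths. The length covers all annotated exons of a gene, so comparisons of level between genes rest on the annotated length. A count was given to a gene only when the first read of a pair lay on the gene's own strand. Genes whose exons overlap exons of a gene on the other strand are called opposed, and genes whose whole span overlaps no gene of the other strand unopposed. Of the 50600 genes, 8189 are opposed. The share of counts on opposed genes was 55.1%, 69.1% and 67.3% by replicate, and that on unopposed genes 38.7%, 25.6% and 27.8%, with 95% Wilson intervals of at most 0.0535 percentage points to either side. The mitochondrial gene mt-Nd6, alone on its strand among the mitochondrial mRNAs, had 31858, 22709 and 31808 counts, against 38231, 22189 and 12885 for the 12 mRNAs of the other strand together. By TPM, mt-Nd6 stood at 28048, 23326 and 36098, where the median of those 12 mRNAs was 600, 352 and 296. Whether the strand setting of the counting matched the libraries was not tested. If it did not, the values below would not be the levels of the members' own RNA.

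The family covered a wide range of levels, led by Cd2, the adaptor Sh2d2a and Slamf1. All members except Cd244a, 9 of 10, reached 1 TPM in every library, where 21.8% of all genes and 38.7% of protein-coding genes did so. The median of the 10 members was 20.8 ± 5.96 TPM (SD, n = 3), beside 0.252 ± 0.0511 TPM over all protein-coding genes and 12.6 ± 4.04 TPM over the 7911 protein-coding genes with enough counts to be tested. Cd2 made up 54.4% ± 3.03 of the members' summed TPM (SD, n = 3), Sh2d2a 19.4% ± 0.422 and Slamf1 10.8% ± 0.763.

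**Figure D1:**
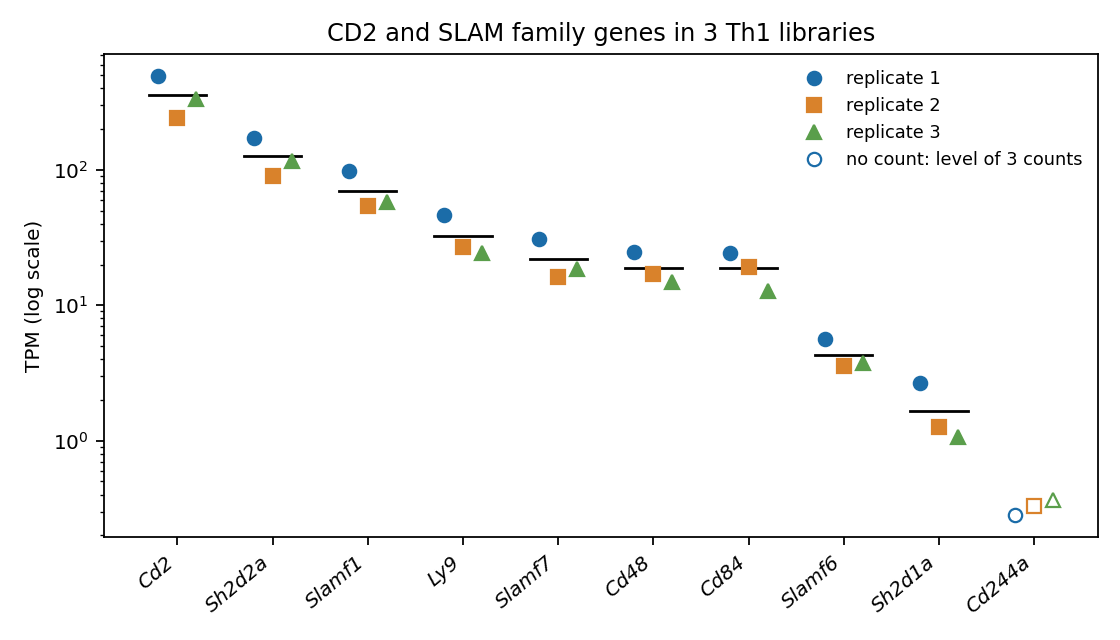
Level of each member in TPM (log scale) in replicates 1, 2 and 3, ordered by mean, with a bar at the mean. Cd2 lies at 240.4 to 493 TPM and Sh2d1a at 1.07 to 2.66 TPM, replicate 1 is highest for each detected member, and open symbols for Cd244a show the level that 3 counts would give.

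Cd2, the adhesion receptor that opens the family, lies on the minus strand of chromosome 3 (101275899 to 101287939), where no gene of the other strand overlaps it. It had 1878, 785 and 979 counts in replicates 1, 2 and 3, which correspond to 493, 240.4 and 331 TPM. The mean was 355 ± 128 TPM (SD, n = 3), and Cd2 ranked between 136th and 196th of 21764 protein-coding genes in the libraries. By TPM over all genes, replicate 1 was highest and replicate 2 lowest. Among 13 other adhesion and costimulatory receptors of T cells, only Cd5, a dampener of receptor signals, had a higher mean, at 419 ± 190.5 TPM (SD, n = 3). The costimulatory receptor Cd27 followed Cd2 at 320.4 ± 109.9 TPM and the CD5 relative Cd6 at 192 ± 44.5 TPM.

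Cd48 (chromosome 1, 171682009 to 171705258, plus strand), the membrane-anchored ligand that CD2 and CD244 bind, stood far lower. It had 64, 38 and 30 counts, or 24.6, 17.0 and 14.9 TPM in replicates 1, 2 and 3, with a mean of 18.8 ± 5.11 TPM (SD, n = 3). Per exon base, Cd2 exceeded Cd48 18.8-fold over the summed counts (95% interval 15.8 to 22.6). On the log2 scale the ratio of Cd2 to Cd48 was 4.31, 3.80 and 4.45 in replicates 1, 2 and 3.

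Slamf1, a self-binding receptor known on activated T cells, was the highest member in the SLAM cluster. It lies on chromosome 1 (171767127 to 171801184, plus strand) and is unopposed, and its promoter window is printed above. Its 1316, 628 and 609 counts correspond to 97.7, 54.4 and 58.3 TPM in replicates 1, 2 and 3. The mean was 70.1 ± 24.0 TPM (SD, n = 3), next to 58.3 ± 25.3 TPM for the costimulatory receptor Cd28. By TPM over all genes, replicate 1 stood apart from replicates 2 and 3, which lay close together. With TPM computed over unopposed genes alone the levels were 347, 363 and 329, with replicate 1 between the others.

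Ly9, a self-binding SLAM receptor of T and B cells (171588624 to 171607410, minus strand), came next within the cluster. It had 336, 168 and 136 counts, or 46.4, 27.1 and 24.2 TPM in replicates 1, 2 and 3, and a mean of 32.6 ± 12.1 TPM (SD, n = 3). Its whole span lies inside that of Cd244a on the other strand, with no exon shared. Cd84, a self-binding receptor known on platelets, B cells and follicular helper T cells (171839697 to 171890718, plus strand), is unopposed. Its 335, 227 and 135 counts gave 24.4, 19.3 and 12.7 TPM, a mean of 18.8 ± 5.88 TPM (SD, n = 3), with replicate 3 lowest.

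Slamf6, a self-binding receptor known on T, B and NK cells (171917515 to 171953170, plus strand), was the lowest detected receptor by TPM. It had 133, 72 and 69 counts over 10832 exon bases, or 5.61, 3.54 and 3.75 TPM in replicates 1, 2 and 3. Its mean was 4.30 ± 1.14 TPM (SD, n = 3), and Slamf1 exceeded it 16.4-fold per exon base over the summed counts (95% interval 14.5 to 18.6). Gm37065, an antisense gene that overlaps the span of Slamf6 but none of its exons, had 8, 8 and 1 counts.

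Cd244a, the CD48 receptor known from NK and CD8 T cells (171559193 to 171609746, plus strand), was the member without a single count. A count of 0 still allows, for counting error only, levels up to 0.281, 0.328 and 0.362 TPM in replicates 1, 2 and 3, where 3 counts per library are taken as the limit. Of protein-coding genes 40.6% likewise had no count. The NK markers Ncr1, Klrb1c, Klra8, Klra4 and Klre1 were also at 0 in every library. The remaining NK marker, the adaptor Tyrobp, had 3, 11 and 15 counts, or 2.06, 8.79 and 13.2 TPM.

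Slamf7, a self-binding receptor known on plasma cells and NK cells (171632403 to 171653035, minus strand), is opposed. It had 308, 140 and 144 counts, or 30.7, 16.3 and 18.5 TPM in replicates 1, 2 and 3, a mean of 21.9 ± 7.78 TPM (SD, n = 3). The plasma cell markers Sdc1, Jchain, Mzb1 and Tnfrsf17 had no count in any library. Across from Slamf7 lies Gm37787, an antisense gene of 585 exon bases within the Slamf7 span (171634879 to 171636022, plus strand). It shares 423 bases with Slamf7 exons, of which 69 are annotated as Slamf7 coding sequence and 354 as UTR alone. Gm37787 had 672, 733 and 759 counts, or 525, 668 and 764 TPM.

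By the counts as assigned to strands, the antisense gene thus stood above the receptor in every library. Per exon base the ratio of Gm37787 to Slamf7 was 17.1, 41.0 and 41.2 in replicates 1, 2 and 3, and 28.6 over the summed counts (95% interval 26.1 to 31.4). That interval covers counting error only, not the spread between replicates, and the ratio of no single library lay within it. By TPM over all genes, Slamf7 was highest in replicate 1 and Gm37787 lowest there. With TPM computed over unopposed genes alone, Slamf7 was nearly level, at 109.2, 108.8 and 104.6 in replicates 1, 2 and 3. Replicate 1 was also the library with the lowest share of counts on opposed genes (55.1%, against 69.1% and 67.3%). Reads of this pair share positions and are told apart by strand alone, so both values and their order are uncertain. Whether the strand setting matched the libraries was not tested. If it did not, counts given to Gm37787 over the shared bases could be reads of Slamf7.

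**Figure D2:**
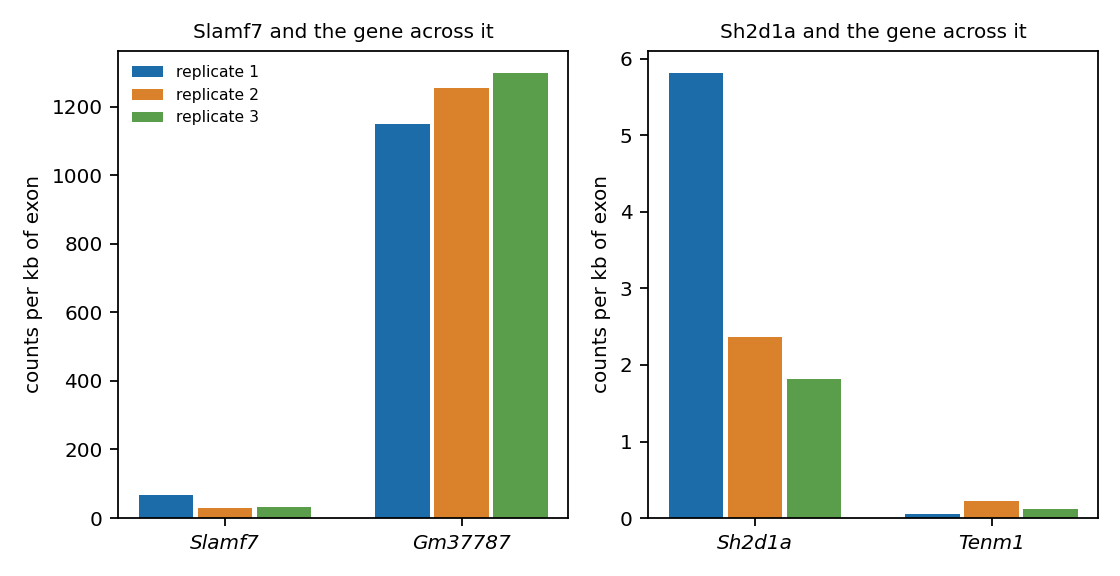
Counts per kb of exon in replicates 1, 2 and 3 for Slamf7 with Gm37787 (left) and Sh2d1a with Tenm1 (right), the pairs whose exons overlap on opposite strands. Gm37787 lies 17.1-fold to 41.2-fold above Slamf7, whereas Tenm1 lies below Sh2d1a in every library.

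The cluster is arranged in the order Cd244a, Ly9, Slamf7, Cd48, Slamf1, Cd84 and Slamf6, with Ly9 and Slamf7 on the minus strand. Besides these 7 members it holds 12 other annotated genes, of which 7 had no count. Apart from Gm37787, the others with counts were at most 2.00 TPM on average. They include Gm10521, a gene between Cd84 and Slamf6, with 6, 15 and 8 counts. Neighbours in the cluster differed in level, since Slamf1 at 70.1 TPM lies between Cd48 at 18.8 TPM and Cd84 at 18.8 TPM.

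**Figure D3:**
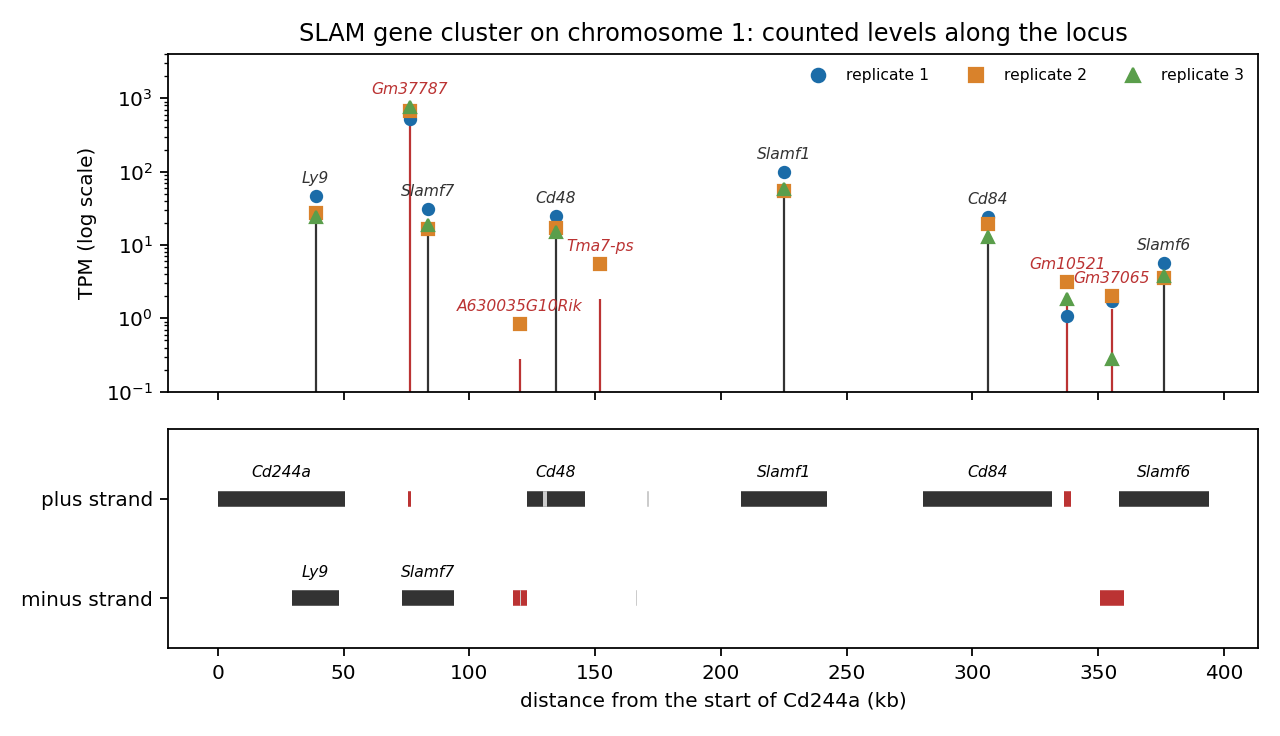
Level in TPM (log scale, top; points for replicates 1, 2 and 3, line up to the mean) and position and strand (bottom) of the genes in the SLAM cluster, against distance from the start of Cd244a in kb. Members are dark, other genes with counts red and those without grey; Slamf1 is the highest member at 70.1 TPM, Gm37787 across Slamf7 lies above it, and Cd244a has no point because it had no count.

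The adaptors stood far apart in level, with Sh2d2a 2nd and Sh2d1a 9th among the members by mean TPM. Sh2d2a (chromosome 3, 87846755 to 87855722, plus strand), unopposed, had 2222, 1012 and 1164 counts, or 171, 90.8 and 115 TPM in replicates 1, 2 and 3. Its mean was 126 ± 41.0 TPM (SD, n = 3). Its partner Lck, the kinase at the T cell receptor, stood at 404 ± 154 TPM, and the ratio of Sh2d2a to Lck was 0.309 per exon base (95% interval 0.298 to 0.321).

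Sh2d1a, which encodes SAP (chromosome X, 42502453 to 42529330, plus strand), was the lowest detected member. Its 32, 13 and 10 counts gave 2.66, 1.26 and 1.07 TPM in replicates 1, 2 and 3, a mean of 1.66 ± 0.866 TPM (SD, n = 3). The exact Poisson interval of the 10 counts in replicate 3 reaches from 4.80 to 18.4. It is opposed by the 3' end of Tenm1, a large neuronal gene, over 1465 exon bases, all of them Tenm1 UTR and 575 annotated as Sh2d1a UTR. Tenm1 had 1, 4 and 2 counts, fewer than Sh2d1a in every library.

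Per exon base, the receptor Slamf1 exceeded Sh2d1a 41.5-fold over the summed counts (95% interval 31.8 to 55.3). Slamf6, another SAP-binding receptor, exceeded it 2.53-fold (1.89 to 3.45), and Sh2d2a 74.1-fold (56.8 to 98.6). Each of these ratios had the same sign in all 3 libraries. The EAT-2 adaptor genes Sh2d1b1 and Sh2d1b2, whose proteins stand in for SAP in NK and myeloid cells, had no count. Of the other SLAM receptors Slamf8, of myeloid cells, had none and Slamf9 had 1, 0 and 0 counts.

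The order of the members by mean TPM was Cd2, Sh2d2a, Slamf1, Ly9, Slamf7, Cd48, Cd84, Slamf6, Sh2d1a and Cd244a. Among the 8 pairs of neighbours with counts, 6 had the same sign of the log2 ratio in all 3 libraries. The exact two-sided sign-flip permutation test gave p = 0.25 for each of these 6, the smallest that 3 libraries allow, or 0.333 after Benjamini-Hochberg adjustment over the 8. The order among Slamf7, Cd48 and Cd84 was not resolved. Slamf7 to Cd48 was 1.17 per exon base over the summed counts (95% interval 0.963 to 1.42), and Cd48 to Cd84 was 0.999 (0.823 to 1.20), each with its sign reversed in 1 library. In counts with no length correction Sh2d2a, with 4398 in all, stood above Cd2 with 3642. In those counts Cd84 with 697 also stood above Ly9 with 640 and Slamf7 with 592, and Slamf6 with 274 above Cd48 with 132.

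All detected members were highest in replicate 1 by TPM. This held for 9 of 9, where 70.9% of all genes tested and 90.2% of unopposed genes tested were highest there. The members' share was close to that of unopposed genes, to which 5 of the 9 belong. Of the others 2 are opposed, and the rest overlap a gene of the other strand in span only. The coefficient of variation of the members over replicates ranged from 26.5% for Slamf6 to 52.1% for Sh2d1a. Replicate 1 is also the library in which unopposed genes held the largest share of counts. With TPM computed over unopposed genes alone, an alternative whose use here was decided after the data were seen, 2 of 9 members were highest in replicate 1, as were 26.8% of genes tested. With TPM over protein-coding genes 7 of 9 members were highest in replicate 1, where 49.6% of genes tested were. With TMM-scaled counts it was 6 of 9 beside 42.4%, and with DESeq2-scaled counts 7 of 9 beside 43.6%. Over unopposed genes, the coefficient of variation ranged from 2.39% for Slamf7 to 31.0% for Cd84 and was lower for all 9 detected members. Its median over these members was 8.73% on that scale and 34.2% by TPM over all genes, against 21.9% and 34.0% over all genes tested, so it was lower there too. Over the 4221 protein-coding unopposed genes tested, the median was 17.3% on that scale and 39.0% by TPM over all genes.

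This change of scale also moved the table as a whole. The log2 difference, replicate 1 minus the mean of replicates 2 and 3, had a median of 0.79 over the 9 detected members by TPM, against 0.67 over all genes tested. By TPM over unopposed genes the median was 0.01 over the members, against -0.12 over all genes tested. Levels of Cd2 over unopposed genes alone were 1751, 1603 and 1869 TPM in replicates 1, 2 and 3, and those of Slamf7 were 109.2, 108.8 and 104.6.

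**Figure D4:**
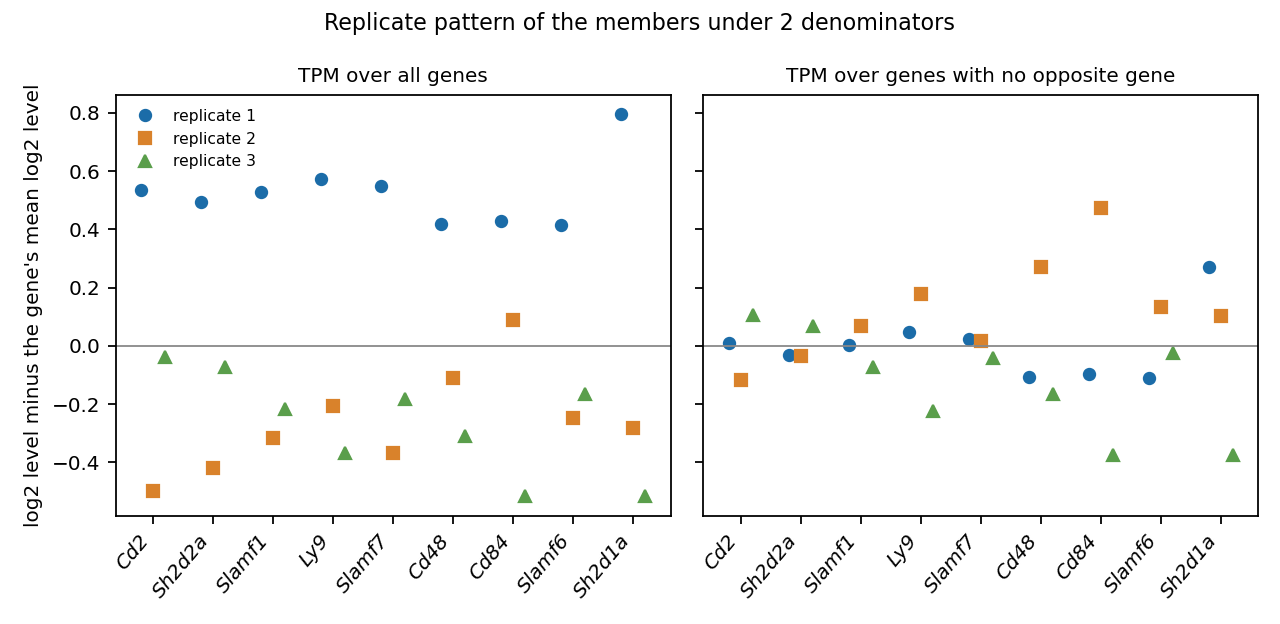
Log2 level of each detected member in replicates 1, 2 and 3 minus its mean log2 level, for TPM over all genes (left) and over genes with no gene on the other strand (right). Replicate 1 is the highest for 9 of 9 members on the left and for 2 of 9 on the right, and Cd84 is the widest on the right.

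Variation between replicates was then set against counting error on counts scaled by edgeR's TMM factors. Of the 9 members tested, 4 varied by more than counting noise (chi-square test, one-sided, Benjamini-Hochberg over all 9469 genes), where 59.6% of all genes tested did. Cd84 had 231, 286 and 178 scaled counts in replicates 1, 2 and 3 (adjusted p = 0.000162), and was called under all 7 alternatives that kept it (adjusted p of at most 0.0265). Its highest library was replicate 2, unlike Cd2 and Sh2d2a, which were lowest there. Cd2 had 1296, 990 and 1291 scaled counts (adjusted p = 1.01e-09) and Sh2d2a 1534, 1276 and 1535 (adjusted p = 6.14e-06). Without replicate 2 these calls were lost, at adjusted p of 0.947 and 0.986.

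Slamf1 had 909, 792 and 803 scaled counts (chi-square test, adjusted p = 0.00870). That call was lost with DESeq2 size factors (adjusted p = 0.0683), over unopposed genes alone (0.56), without replicate 1 (0.826) and without replicate 3 (0.0535). Slamf6 had 91.8, 90.8 and 91.0 scaled counts (adjusted p = 0.997). The values of Ly9, Slamf7, Cd48 and Sh2d1a had adjusted p of 0.0636, 0.216, 0.776 and 0.373. Ly9 was called with no low-count filter (adjusted p = 0.0481), with total counts as scaling (1.35e-06) and without replicate 2 (0.0289), and Slamf7 with total counts as scaling (1.75e-05). No member varied beyond the dispersion trend of genes of like abundance (edgeR, 0 of 9, also 0 at an unadjusted p under 0.05 and 0 with DESeq2), where 0.253% of all genes did. The lowest unadjusted p was 0.466, for Cd84.

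Genes that act with the family were examined as lists, chosen by known function with earlier results of these data in view. In the list of kinases, phosphatases and effectors tied to SLAM receptors and SAP, each of the 14 genes was at 1 TPM or more in all 3 libraries. The median of their mean levels was 37.4 TPM. Over all genes the share at 1 TPM in every library was 21.8%, and over protein-coding genes 38.7%. Lck was the highest, followed by Nfkb1, an NF-kB subunit, at 228 ± 67.2 TPM (SD, n = 3) and the phosphatase gene Ptpn6, which is opposed, at 158 ± 65.3 TPM. Fyn, the kinase that SAP recruits, had 154 ± 64.3 TPM, and Arhgef7, a guanine nucleotide exchange factor, was lowest at 4.40 ± 1.77 TPM. Of 13 tested genes, 9 varied beyond counting noise, where 59.6% of all genes tested did, and 0 beyond the trend, where 0.253% did. All 14 were highest in replicate 1 by TPM, as were 70.9% of all genes tested.

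Proteins that bind the CD2 tail or its partners made up a list of 9 genes, all of them at 1 TPM or more in each library and with a median level of 27.1 TPM. It was led by Cd247, the CD3 zeta chain, opposed, at 175 ± 17.1 TPM (SD, n = 3), before the actin capping subunits Capzb at 103 ± 40.1 and Capza1, opposed, at 32.3 ± 16.6 TPM. Pstpip1, an adaptor of the CD2 tail, was lowest at 6.55 ± 3.63 TPM. The TSAd partner list of 8 genes, all at 1 TPM or more, had a median of 202 TPM. For both lists the share of protein-coding genes at 1 TPM in every library, 38.7%, is the background. Its highest were Lcp2, the adaptor SLP-76, opposed, at 461 ± 150.0 TPM, then Lck, and Lat, the membrane scaffold of receptor signalling, at 258 ± 115 TPM, and its lowest was the kinase Txk at 6.68 ± 2.07 TPM. In the CD2 list 6 of 9 genes and in the TSAd list 6 of 8 varied beyond counting noise, beside 59.6% of all genes tested.

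In the adhesion and costimulation list 11 of 13 genes reached 1 TPM in every library, where 38.7% of protein-coding genes did. The lowest was Tigit, an inhibitory receptor, at 2.50 ± 2.42 TPM (SD, n = 3). That list's median was 29.0 TPM, and 10 of 11 tested genes varied beyond counting noise, where 59.6% of all genes tested did. By level over the 3 libraries, the 5 protein-coding genes nearest to Cd2 among 7993 were Smim27, H2-Q4, Vasp, Tpm4 and Arpc2. Their root mean square differences from Cd2 were 0.05, 0.07, 0.09, 0.10 and 0.10 on the log2 TPM scale. Smim27, H2-Q4 and Tpm4 are opposed, and H2-Q4, of the MHC class I family, can share reads with close relatives.

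**Figure D5:**
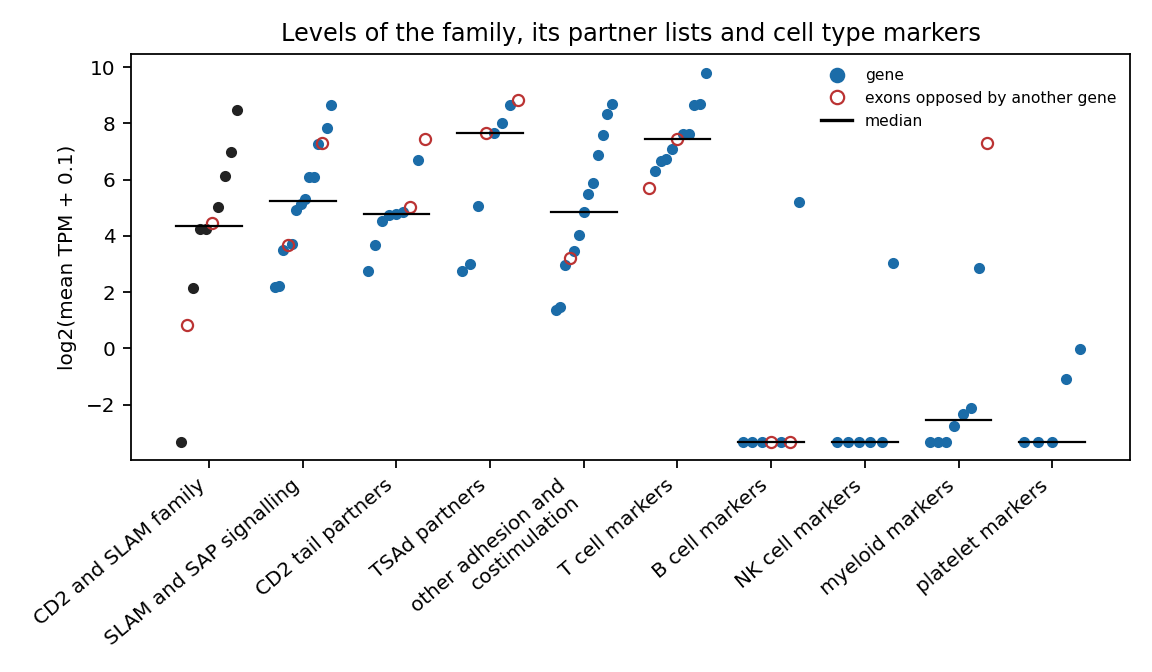
Mean level of each gene, as log2(mean TPM + 0.1), for the family (dark points), its partner lists and markers of T cells and other cell types, with bars at the medians and open red circles for opposed genes. The family spans from Cd244a at 0 TPM to Cd2 at 355 TPM, and most markers of B cells, NK cells, myeloid cells and platelets lie at 0 or near it.

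Markers of other cells that carry these receptors were mostly at or near 0, with Csf1r and Cd79a the highest. Tyrobp, Cd68, Cd8b1 and Cd74 had means of 8.03, 7.23, 6.73 and 6.16 TPM, above Slamf6 at 4.30 and Sh2d1a at 1.66 TPM. The part of such cells in the members' levels was not tested beyond these values. Among the B cell markers, Cd79a had 27.0, 48.7 and 33.6 TPM in replicates 1, 2 and 3, while Ms4a1, Cd79b, Pax5, Cd22 and Blk were at 0. Of 5 platelet markers, 2 had counts, with a summed level of 2.58, 0.996 and 0.216 TPM, and Gp1bb, Pf4 and Ppbp were at 0. The 8 myeloid markers summed to 177, 137 and 181 TPM, nearly all from Csf1r, which is opposed, while Lyz2, Cd14 and Spi1 were at 0. The dendritic cell list summed to 11.2, 10.1 and 11.5 TPM with Itgax, Flt3 and Siglech at 0. In it Cd74 had 6.16, 6.05 and 6.27 TPM and Xcr1 had 3.08, 2.99 and 3.57 TPM in replicates 1, 2 and 3. The stem cell list summed to at most 0.402 TPM and the mast cell list to at most 3.87 TPM. Zbtb16, the NKT cell factor, had no count, and the CD8 chains Cd8a and Cd8b1 together had 10.7, 5.90 and 3.97 TPM. In bulk RNA, fewer cells of a type and less RNA per cell cannot be told apart.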

How the data were processed

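The deposited values are raw counts of read pairs per gene. Per the file headers, the authors counted them over exons with featureCounts 1.4.6-p4, GENCODE vM13 models and strand setting 1, keeping only pairs with both ends aligned, after a stranded paired-end alignment step named star2. The assembly is mm10 per the labels. Symbols came from GENCODE vM21, matched by identifier for 50376 genes (99.56%), and all 10 members had the same span there. Per the labels, the assay is total RNA-seq, with a linked poly(A)+ protocol.

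TPM was computed from the deposited counts and exon lengths over all 50600 genes. Exon and span overlaps were found with bedtools 2.31.1. R 4.3.3 with edgeR 4.0.16 was used for variation between replicates: filterByExpr at a minimum count of 10 kept 9469 genes, which were scaled by TMM and fitted with an intercept alone. Counting noise was tested by a chi-square test, and excess over the trended dispersion from the deviance, each with 2 degrees of freedom, one-sided, and adjusted by Benjamini-Hochberg at 0.05. DESeq2 1.42.0 gave alternative size factors and dispersions. Both tests were also run on simulated counts, which held no shift between opposed and unopposed genes from library to library. Ratios of summed counts used exact Clopper-Pearson intervals, with 0.5 added to each count on the log2 scale in single libraries. Intervals are 95% intervals and, like the floor of 3 counts, cover counting error only. No library repeated another: pairs differed by 14.3 to 43.1 times the chi-square of sampling noise.

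Members, gene lists and tests were chosen with earlier results of these data known. All members, genes overlapping them, the 3 highest genes and the lowest of each partner list, and the 5 genes nearest the highest member were to be named. Fyn, Cd28, Gm10521 and genes used as markers were named besides. Alternatives were other denominators, scalings, filters and thresholds, and leaving out each replicate.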

Additional observations from a re-analysis of the deposited data

How the results depend on the processing

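The median level of the members, 20.8 TPM, was 55.9 in CPM, 51.0 in TPM over protein-coding genes and 105 in TPM over unopposed genes, 20.0 with DESeq2 size factors, and 17.4 to 22.9 when 1 replicate was left out. These denominators scale every gene of a library alike, whereas CPM drops exon length. The count of members highest in replicate 1, 9 by TPM, was 2 over unopposed genes, 7 over protein-coding genes and with DESeq2 size factors, and 6 with TMM scaling; these were chosen after seeing the data. The count of members at 1 TPM was 9 under every alternative run. The number of neighbouring pairs with 1 sign in every library was 5 to 8, against 6. The 8 came from leaving out replicate 2, where only 2 libraries had to share a sign. Members beyond counting noise numbered 3 to 6, against 4 of 9 tested, and none passed the trend test in any of the fits run. Among unopposed genes alone, the number beyond counting noise was 3 of 5 members. Over all genes, those beyond counting noise numbered 5642 of 9469 tested, but 1536 of 4272 among unopposed genes alone and 2476 of 9677 without replicate 1. Those beyond the trend numbered 24 of 9469, and 6 of 9469 with total counts as scaling. They were 44 of 19067 with no low-count filter, 55 of 4272 among unopposed genes alone, 3 of 10139 without replicate 2 and 8 of 10185 without replicate 3. Leaving out opposed and span-overlapped genes left 5 members in the fit. Depth limits Sh2d1a and Cd48 most, and Cd244a entirely. No paired analysis was possible because the series holds 1 group.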
